A study of Saccharomyces cerevisiae with 43 samples.

Results

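The enzymes described here are those of the mitochondrial tricarboxylic acid (TCA) cycle of budding yeast, Saccharomyces cerevisiae. The members were fixed by name as CIT1, ACO1, IDH1, IDH2, KGD1, KGD2, LSC1, LSC2, FUM1 and MDH1. All 10 were found by their locus tags, as 10 of 5604 features in one array table and 10 of 6868 in another. They were followed in cells that met a mild dose of hydrogen peroxide (H2O2), in cells that had met salt (NaCl) beforehand, in the salt stress itself, and in cells without the nuclear pore gene NUP42. Succinate dehydrogenase, the remaining step of the cycle, is not among the members and is described with the neighbouring pathways.

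In the TCA cycle, acetyl-CoA joins oxaloacetate to make citrate, and a chain of dehydrogenases in the mitochondrial matrix returns oxaloacetate while passing electrons to the respiratory chain. In yeast growing on glucose the genes are held low by glucose repression. The Hap2/3/4/5 activator drives many of them when respiration is needed, and the retrograde pathway of Rtg1, Rtg2 and Rtg3 sustains the citrate-to-2-oxoglutarate branch when mitochondrial function is poor. Aconitase carries an iron-sulfur cluster that oxidants destroy, and the 2-oxoglutarate dehydrogenase complex depends on lipoic acid.

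Cells were of BY4741, a standard haploid background with mating type a, or of BY4741 carrying a deletion of NUP42 (nup42-delta), and all cultures grew in YPD, a rich glucose medium. In the first array design, NaCl-pretreated BY4741 received 0.7 M NaCl for 60 min, 240 min without stress, and then 0.4 mM H2O2 for 10, 20, 30 or 40 min, each sample set against the same kind of recovered cells before peroxide (3, 3, 2 and 2 arrays). Naive BY4741 received 0.4 mM H2O2 for the same times without earlier salt, set against untreated cells (3, 3, 2 and 2 arrays). BY4741 in 0.7 M NaCl was sampled at 15, 30, 45 and 60 min (1, 2, 2 and 1 arrays), and cells left to recover for 240 min from NaCl, or from mock handling, were set against untreated cells on 3 arrays per group. A second design had a single array for each of 11 conditions of nup42-delta and BY4741. Every array hybridised the sample and its comparison RNA together, so each value is a log2 ratio of sample over comparison RNA: 0 is no difference and 1 is a 2-fold higher level. The labels do not say whether replicate arrays came from separate cultures, so the p-values measure the spread between these samples, which may be technical. In a bulk culture, a change in every cell and a larger change in some cells cannot be told apart.

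The 43 arrays comprised 32 of the first design, with 4446 to 5575 valued features each, and 11 of the second. The members had 316 of 320 possible values in the first design and all 110 in the second. Of the members, 7 were valued on all 32 arrays of the first design, while ACO1 was valued on 31, LSC2 on 31 and KGD2 on 30. The number of arrays limits the precision. On the nup42-delta array set against BY4741 before any stress, NUP42 itself read -5.36, and on the NaCl array of nup42-delta against BY4741 it read -4.75, as the labels of those arrays require. Ratios carry no level, so they do not test whether the cultures are of one cell type.

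Within 40 min, peroxide raised most of the cycle's genes in pretreated and in naive cells. At 10 min, 4 of 10 members were higher in pretreated cells and 0 lower (limma, Benjamini-Hochberg adjusted p under 0.05), where 40.2% of all genes tested were called, 16.6% higher and 23.7% lower. In naive cells at 10 min, 2 members were higher and 1 lower, where 33.7% of all genes were called, 15.2% higher and 18.5% lower. At 20 min the counts were 8 higher and 0 lower in pretreated cells, and 5 higher and 2 lower in naive cells. The share of all genes tested that was called at that time was 60.6% in pretreated cells, 26.7% higher and 33.9% lower, and 54.6% in naive cells, 25.4% higher and 29.2% lower.

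At 30 min, 7 of 10 members were higher in pretreated cells and 7 of 10 in naive cells, with 62.3% of all genes called in pretreated cells and 55.0% in naive cells. At 40 min, 7 of the 8 testable members were higher in pretreated cells and 7 of 10 in naive cells, with 63.1% of all genes called in pretreated cells and 61.2% in naive cells. Genes called higher made up 29.7% of all genes tested at both late times in pretreated cells, against 25.7% at 30 min and 27.9% at 40 min in naive cells. Genes called lower made up 32.6% and 33.4% at these times in pretreated cells, against 29.3% and 33.4% in naive cells. No member was called lower at either late time in either group. The members' median ratio was 0.25, 0.71, 1.04 and 0.97 at 10, 20, 30 and 40 min in pretreated cells, against 0.06, 0.39, 0.79 and 0.88 in naive cells, while the median of all genes tested stayed between -0.10 and -0.04.

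**Figure D1:**
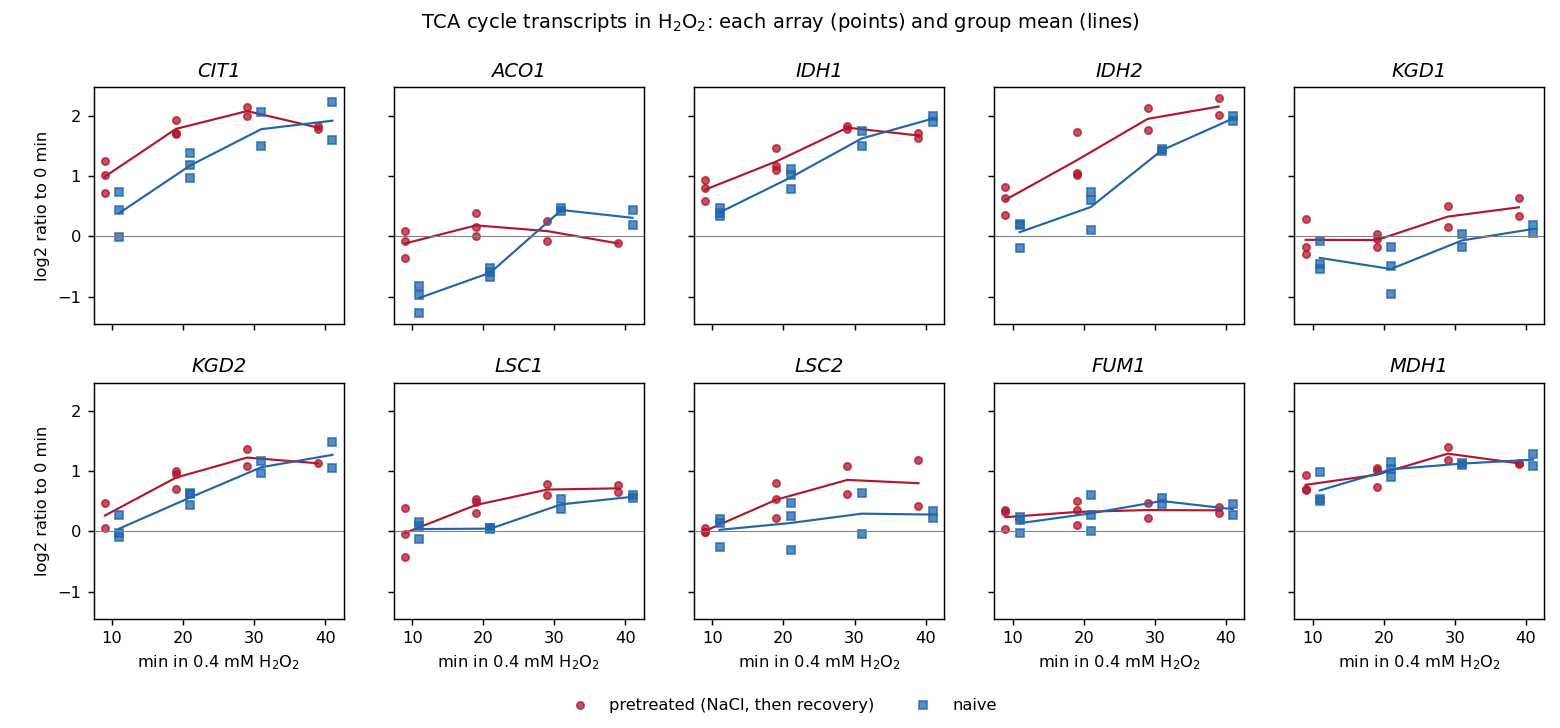
Log2 ratio to the 0 min sample (vertical axis) against minutes in 0.4 mM H2O2 (horizontal axis) for the 10 enzymes, 1 panel each. Red points are NaCl-pretreated arrays, drawn to the left of naive arrays (blue squares) at each time, and lines join the means. CIT1, IDH1 and IDH2 climb to about the same height in both groups, and ACO1 is near 0 in pretreated cells but well below 0 in naive cells at 10 and 20 min.

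CIT1 encodes mitochondrial citrate synthase, which brings acetyl-CoA into the cycle. In pretreated cells it read 1.01, 0.72 and 1.24 at 10 min, 1.93, 1.70 and 1.71 at 20 min, 2.0 and 2.15 at 30 min, and 1.78 and 1.82 at 40 min. In naive cells it read -0.01, 0.73 and 0.43 at 10 min, 0.96, 1.38 and 1.18 at 20 min, 1.49 and 2.06 at 30 min, and 1.60 and 2.23 at 40 min. The groups overlapped at 10, 30 and 40 min, and at 20 min every pretreated array was above every naive array. The rise was significant at all 4 times in pretreated cells, being 0.99 ± 0.18 at 10 min (SE, n = 3; limma adjusted p = 0.00015) and 2.08 ± 0.22 at 30 min (SE, n = 2; adjusted p = 4.9e-08). In naive cells 10 min did not pass the test (0.38 ± 0.18, adjusted p = 0.099), and CIT1 rose by 1.17 ± 0.18 at 20 min and by 1.92 ± 0.22 at 40 min, a 3.77-fold change (adjusted p = 1.4e-07). CIT1 has close paralogs in CIT2 and CIT3, and cross-hybridisation between them was not tested.

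ACO1 encodes aconitase, which isomerises citrate to isocitrate. In naive cells at 20 min ACO1 was called lower where CIT1 was called higher. In pretreated cells it read -0.08, -0.36 and 0.08 at 10 min, 0.38, 0.00 and 0.16 at 20 min, and 0.25 and -0.08 at 30 min, with 1 value of -0.12 at 40 min. In naive cells it read -1.27, -0.82 and -0.98 at 10 min, -0.68, -0.60 and -0.53 at 20 min, 0.41 and 0.46 at 30 min, and 0.18 and 0.43 at 40 min. Every naive array was below every pretreated array at 10 and at 20 min, and at 30 min both naive arrays were above both pretreated arrays. In pretreated cells no change from the recovered cells passed the test at 10, 20 or 30 min, with estimates between -0.12 and 0.18. In naive cells ACO1 fell by 1.02 ± 0.15 at 10 min, to 0.492 of the untreated level (SE, n = 3; limma adjusted p = 3.6e-05), and by 0.60 ± 0.15 at 20 min (adjusted p = 0.0023). It was back to 0.44 ± 0.19 at 30 min (adjusted p = 0.055) and 0.31 ± 0.19 at 40 min (adjusted p = 0.17). The 40 min value exceeded the 10 min value by 1.33 ± 0.24 in naive cells (adjusted p = 0.00023).

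IDH1 and IDH2 encode the regulatory and catalytic subunits of NAD-dependent isocitrate dehydrogenase, an octamer that needs both. IDH1 read 0.94, 0.58 and 0.80 at 10 min, 1.46, 1.16 and 1.10 at 20 min, 1.83 and 1.77 at 30 min, and 1.63 and 1.71 at 40 min in pretreated cells. In naive cells it read 0.34, 0.46 and 0.38 at 10 min, 1.02, 1.11 and 0.79 at 20 min, 1.49 and 1.75 at 30 min, and 1.90 and 2.0 at 40 min. The pretreated arrays were all above the naive arrays at 10 and 30 min and all below them at 40 min, and at 20 min the groups overlapped. IDH1 was called higher at all 8 points, by 0.77 ± 0.14 at 10 min and 1.67 ± 0.17 at 40 min in pretreated cells, and by 0.39 ± 0.14 at 10 min (limma adjusted p = 0.035) and 1.95 ± 0.17 at 40 min (adjusted p = 4.1e-09) in naive cells. The naive call at 10 min was lost on leaving out any one of its 3 arrays, with adjusted p of 0.087, 0.15 and 0.10, and the pretreated call at 10 min was lost without the first replicate of every group (0.69, adjusted p = 0.057).

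IDH2 read 0.81, 0.36 and 0.64 at 10 min, 1.72, 1.01 and 1.04 at 20 min, 2.13 and 1.76 at 30 min, and 2.29 and 2.01 at 40 min in pretreated cells. In naive cells it read 0.19, 0.21 and -0.20 at 10 min, 0.74, 0.60 and 0.11 at 20 min, 1.41 and 1.44 at 30 min, and 1.91 and 1.99 at 40 min. It was the only member whose pretreated arrays were all above its naive arrays at all 4 times. IDH2 was called higher at all 4 times in pretreated cells, reaching 2.15 ± 0.23 at 40 min, a 4.44-fold change (SE, n = 2; limma adjusted p = 2.8e-08). In naive cells it measured 0.07 ± 0.18 at 10 min (adjusted p = 0.82), rose by 0.48 ± 0.18 at 20 min (adjusted p = 0.031) and reached 1.95 ± 0.23 at 40 min (adjusted p = 2.1e-07). The early calls of IDH2 were lost on leaving out either of 2 replicates. In pretreated cells at 10 min it read 0.50 without replicate 1 (adjusted p = 0.10) and 0.59 without replicate 3 (adjusted p = 0.066). In naive cells at 20 min it read 0.36 without replicate 1 (adjusted p = 0.20) and 0.43 without replicate 2 (adjusted p = 0.14). The 40 min value of IDH2 exceeded its 10 min value by 1.55 ± 0.29 in pretreated cells and by 1.88 ± 0.29 in naive cells.

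KGD1 and KGD2 encode the dehydrogenase (E1) and the lipoate-bearing succinyltransferase (E2) of the 2-oxoglutarate dehydrogenase complex, and they did not move alike. KGD2 rose by 0.89 ± 0.11 at 20 min (n = 3) and 1.23 ± 0.14 at 30 min (n = 2) in pretreated cells. In naive cells it rose by 0.56 ± 0.11 at 20 min (n = 3), 1.07 ± 0.14 at 30 min and 1.27 ± 0.14 at 40 min (n = 2), the last a 2.41-fold change (limma adjusted p = 1.9e-07). KGD1 was called higher at 40 min in pretreated cells, at 0.48 ± 0.17 (adjusted p = 0.019). In naive cells KGD1 fell by 0.54 ± 0.14 at 20 min (adjusted p = 0.0025), and its 40 min value of 0.12 ± 0.17 did not pass the test. Both KGD1 calls were lost without replicate 1 of their group, at 0.33 (adjusted p = 0.27) in pretreated cells and -0.34 (adjusted p = 0.083) in naive cells. On single peroxide arrays with both values, KGD2 lay above KGD1 on 8 of 8 pretreated arrays, with a median gap of 0.88, and on 10 of 10 naive arrays, with a median gap of 1.05.

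LSC1 and LSC2 encode the alpha and beta subunits of succinyl-CoA ligase, the step that makes ATP directly. Neither was called at 10 min in either group. In pretreated cells LSC1 rose by 0.44 ± 0.12 at 20 min and 0.72 ± 0.15 at 40 min, and LSC2 by 0.53 ± 0.17 at 20 min (limma adjusted p = 0.01) and 0.80 ± 0.21 at 40 min (adjusted p = 0.0019). The LSC2 arrays at 40 min stood far apart, at 0.42 and 1.18 in pretreated cells, against 0.34 and 0.22 in naive cells. In naive cells LSC1 rose by 0.58 ± 0.15 at 40 min, while LSC2 was not called at any time, with estimates between 0.03 and 0.30. LSC2 lost its pretreated calls when replicate 2 of every group was left out, at 0.52 for 20 min (adjusted p = 0.077) and 0.42 for 40 min (adjusted p = 0.32). Without replicate 1 of every group LSC1 was not called at 20 min in pretreated cells (0.42, adjusted p = 0.068) or at 40 min in naive cells (0.55, adjusted p = 0.096).

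FUM1, fumarase, and MDH1, mitochondrial malate dehydrogenase, close the cycle from fumarate to oxaloacetate. FUM1 changed little: its estimates lay between 0.24 and 0.36 in pretreated cells and between 0.14 and 0.51 in naive cells. It was called at 20 min in pretreated cells (0.32 ± 0.13, limma adjusted p = 0.035) and at 30 and 40 min in naive cells (0.51 ± 0.16 and 0.37 ± 0.16). Each FUM1 call was lost on leaving out either of its first 2 arrays, with estimates of 0.24 to 0.56. MDH1 was already raised in the first sample, at 0.71, 0.68 and 0.93 on the pretreated arrays and 0.51, 0.99 and 0.54 on the naive arrays at 10 min. The fitted rise of MDH1 at 10 min was 0.77 ± 0.11 in pretreated cells (adjusted p = 6.4e-06) and 0.68 ± 0.11 in naive cells (adjusted p = 4.4e-05), and at 40 min it was 1.13 ± 0.13 in pretreated cells and 1.19 ± 0.13 in naive cells. MDH1 was called at all 8 peroxide points.

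**Figure D2:**
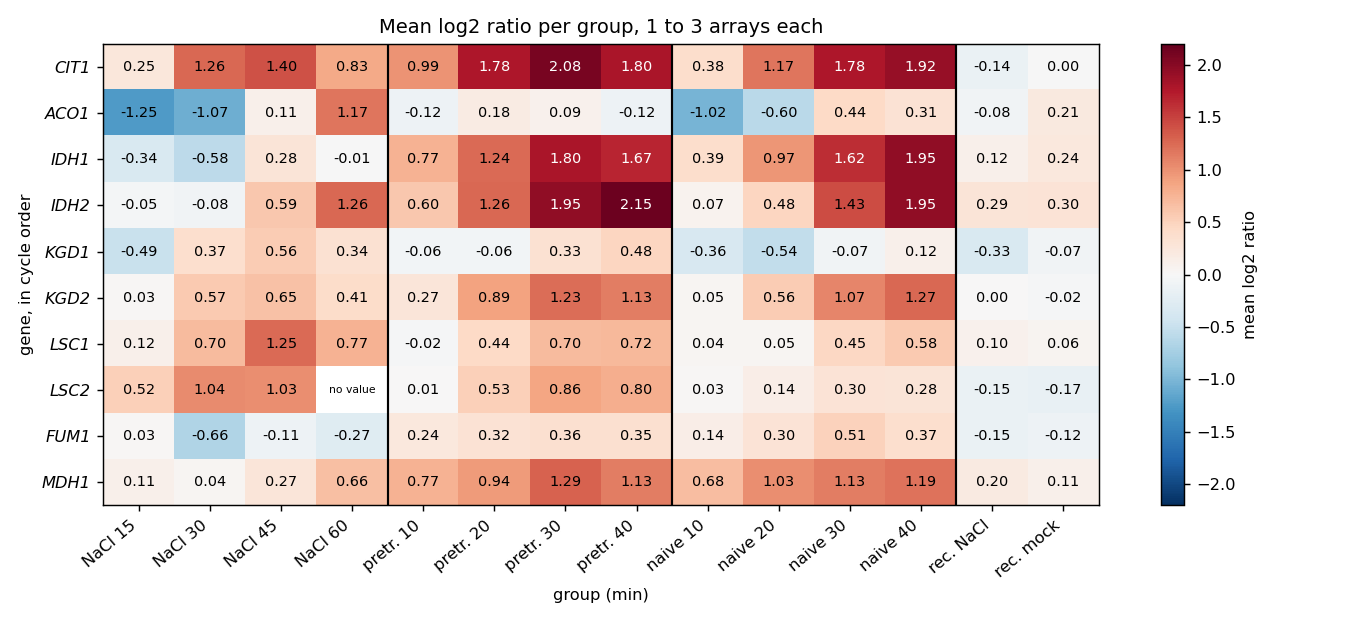
Mean log2 ratio of each enzyme (rows, in the order of the cycle) in each of the 14 groups of the first design (columns), printed in each cell and coloured on a scale centred at 0. CIT1 is high in peroxide and in salt, IDH1 is high in peroxide and below or near 0 in salt, and the recovered groups are near 0 throughout.

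Ordered by their naive 40 min ratios, IDH1 (1.95), IDH2 (1.95) and CIT1 (1.92) came first, then KGD2 (1.27), MDH1 (1.19), LSC1 (0.58), FUM1 (0.37), ACO1 (0.31), LSC2 (0.28) and KGD1 (0.12). The 95% intervals of each neighbouring pair in that order overlapped except those of MDH1, 0.92 to 1.46, and LSC1, 0.27 to 0.88. These are sizes of change and not levels, since a ratio does not say how much of a transcript was present.

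Whether earlier salt changes the later peroxide response was asked by subtracting the naive from the pretreated response at each time. The early differences were mostly positive: 8 of 10 members at 10 min and 9 of 10 at 20 min had a larger ratio in pretreated cells. The median difference was 0.26 at 10 min and 0.39 at 20 min, against -0.07 and -0.04 over all genes tested. By 30 and 40 min the median was 0.21 and 0.06, against -0.02 and -0.05 over all genes.

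A single member passed the test, at a single time. ACO1 was higher by 0.78 ± 0.22 in pretreated cells at 20 min, a 1.72-fold difference (95% interval 0.33 to 1.23, n = 3 each; limma adjusted p = 0.048). At 10 min its difference was as large, 0.90 ± 0.22, with an adjusted p of 0.10. By count, 0 of 10 members were called at 10 min, where 0.229% of all genes were, and 1 of 10 at 20 min, where 3.76% were called and 3.06% were higher. At 30 min 0 of 10 members were called, where 8.93% of all genes were, 2.77% higher and 6.16% lower. At 40 min 0 of 8 were called, where 11.9% of all genes were, 2.54% higher and 9.39% lower. At an unadjusted p under 0.05 there were 2 members at 10 min, 5 at 20 min and 0 at 30 and at 40 min, against 500 of 5241, 1228 of 5298, 1238 of 4952 and 1234 of 4769 genes. ACO1 at 20 min sat close to the threshold: its adjusted p was 0.46 without replicate 1, 0.085 without replicate 2, 0.15 without replicate 3 and 0.46 when only the arrays compared were fitted, while its estimate stayed between 0.59 and 0.88. With the code of the array print, which sets replicate 3 apart, as a block the difference was 0.78 (adjusted p = 0.028), and within the print code of replicates 1 and 2 it was 0.83. The other print code held 1 array a side. Its 10 min difference passed the test, with an adjusted p of 0.034, without replicate 2 of the pretreated arrays.

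**Figure D3:**
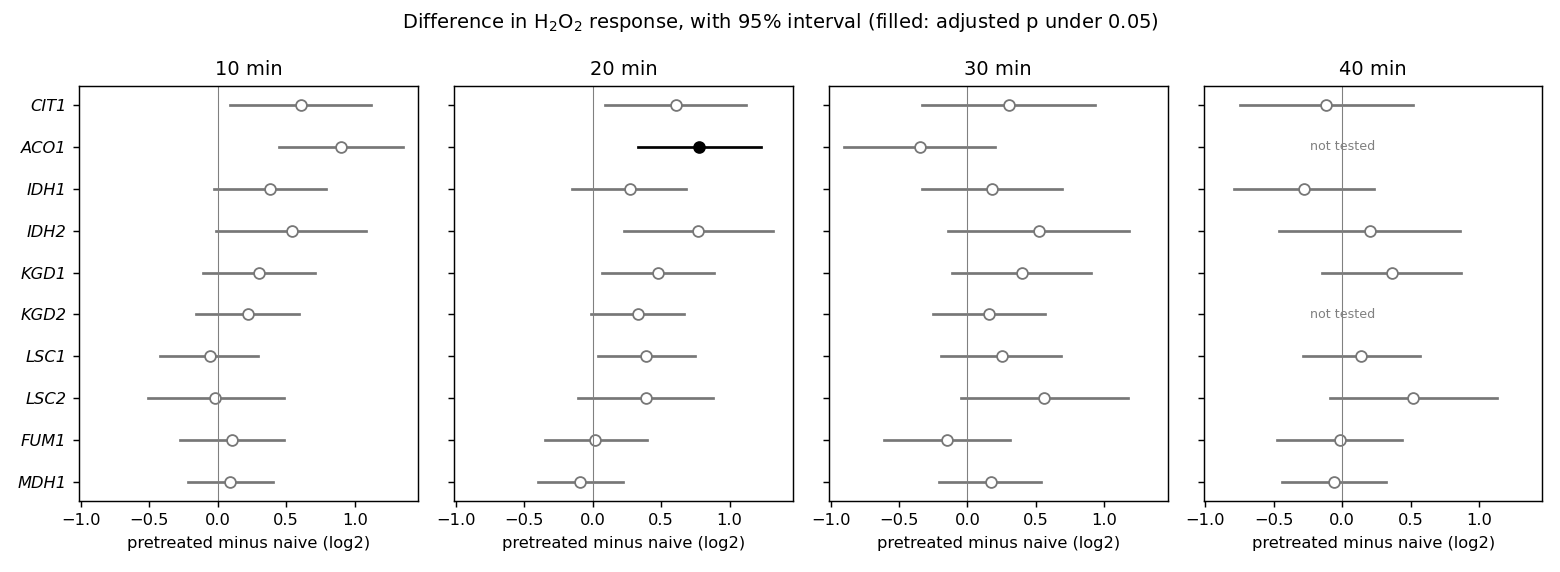
Pretreated minus naive log2 response (horizontal axis) with its 95% interval for each enzyme (rows) at 10, 20, 30 and 40 min of H2O2 (panels). Filled points passed the test, which is ACO1 at 20 min alone, and ACO1 and KGD2 could not be tested at 40 min.

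After ACO1 the next members at 20 min were IDH2, at 0.77 ± 0.26 (95% interval 0.23 to 1.32, limma adjusted p = 0.091), CIT1, at 0.61 ± 0.25 (adjusted p = 0.15), and KGD1, at 0.48 ± 0.20 (adjusted p = 0.15). IDH2 passed, with an adjusted p of 0.045, without replicate 2 of the pretreated arrays. MDH1 and FUM1 stood at the other end, with differences at 20 min of -0.09 (95% interval -0.40 to 0.22) and 0.02 (-0.35 to 0.40). Counting members whose arrays did not overlap, 3 of the 9 valued on all arrays were higher at 10 min (ACO1, IDH1 and IDH2), where 6.76% of all such genes were. At 20 min it was 5 of 10 (CIT1, ACO1, IDH2, KGD2 and LSC1), where 11.5% were. At 30 min 5 of 10 were higher and 1 lower, and at 40 min 4 of 8 were higher and 1 lower. With 2 arrays a side at these late times, 26.6% of all genes were higher and 31.1% lower without overlap at 30 min, and 24.8% higher and 31.2% lower at 40 min.

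The pretreated arrays were also more spread out over all their genes. The standard deviation of log2 ratios within an array was 0.84, 0.63 and 0.99 on pretreated arrays and 0.66, 0.68 and 0.83 on naive arrays at 10 min, 1.05, 1.01 and 1.38 against 1.01, 0.98 and 1.10 at 20 min, 1.32 and 1.32 against 1.12 and 1.17 at 30 min, and 1.44 and 1.46 against 1.26 and 1.35 at 40 min. With the spread of the 26 stress arrays made equal, the ACO1 difference was 1.27 at 10 min (limma adjusted p = 0.0082) and 0.74 at 20 min (adjusted p = 0.13).

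The pretreated response is measured from recovered cells, so a lasting shift in level left by salt is not in it. Cells 240 min after NaCl differed little from untreated cells: ACO1 read -0.22, -0.06 and 0.03, against 0.07, 0.59 and -0.04 after the mock treatment, and CIT1 read -0.38, 0.29 and -0.33, against -0.22, 0.47 and -0.26. Over the 10 members the fitted recovery change lay between -0.33 and 0.29 after NaCl and between -0.17 and 0.30 after mock treatment, and their difference between -0.29 and 0.10. In each of these 3 comparisons limma called 0 of 10 members and 0% of all genes. At an unadjusted p under 0.05 there was 1 member after NaCl (KGD1, -0.33 ± 0.14), 0 after mock treatment and 0 for their difference, against 473 of 5583, 205 of 5438 and 44 of 5425 genes. With the spread of all 32 arrays made equal, which widens the quiet recovery arrays, 2 members were called after NaCl and 1 after mock treatment, as were 1241 of 5583 and 932 of 5438 genes. The intervals of the NaCl-minus-mock difference reached from -0.74 to 0.16 for ACO1 and from -0.65 to 0.38 for CIT1. With 3 arrays each, differences within those ranges were not excluded.

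Adding the recovery change to the response gives the level in pretreated cells relative to the level in naive cells. At 20 min that difference was 1.06 ± 0.32 for IDH2 (limma adjusted p = 0.14), 0.70 ± 0.27 for ACO1 (adjusted p = 0.23) and 0.49 ± 0.21 for LSC1 (adjusted p = 0.26). The recovery change after NaCl was 0.29 for IDH2, -0.08 for ACO1 and 0.10 for LSC1, against 0.30, 0.21 and 0.06 after mock treatment. The level difference does not subtract the mock change. None of the 10 members was called at 10 min, where 0% of all genes were, or at 20 min, where 0.227% were. At an unadjusted p under 0.05 there were 2 members at 10 min and 3 at 20 min, against 382 of 5237 and 844 of 5280 genes. In a fit with the replicate number as a block, 1 member and 60 of 5280 genes were called at 20 min.

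Salt itself moved the same genes in a different pattern. At 30 min in 0.7 M NaCl, limma called 4 of 10 members higher and 3 lower, where 52.3% of all genes were called, 24.6% higher and 27.6% lower. At 45 min it called 6 higher and 0 lower, where 37.8% were called and 18.6% were higher. The median of the members was 0.20 at 30 min and 0.57 at 45 min, against -0.01 and -0.02 over all genes. The 15 and 60 min samples were single arrays and were not tested.

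CIT1 again rose, reading 0.25 at 15 min, 1.12 and 1.40 at 30 min, 1.13 and 1.67 at 45 min and 0.83 at 60 min. Its fitted change was 1.26 ± 0.22 at 30 min (SE, n = 2; limma adjusted p = 3.9e-05), a 2.39-fold rise, and 1.40 ± 0.22 at 45 min. ACO1 read -1.25 at 15 min, -0.98 and -1.16 at 30 min, 0.60 and -0.38 at 45 min and 1.17 at 60 min. It was low on all 3 arrays of the first 30 min and high on the single 60 min array, and its 2 arrays at 45 min lay on either side of 0. ACO1 fell by 1.07 ± 0.19 at 30 min, to 0.476 of the untreated level (adjusted p = 5.8e-05). The 45 min value exceeded the 30 min value by 1.18 ± 0.27 (adjusted p = 0.0085), and it was 1 of 2 members called in that comparison, where 8.48% of all genes were. That count was 5 with the slide code as a random block and 0 when only the arrays compared were fitted. Without replicate 1 of the 45 min arrays that difference was 0.69 (adjusted p = 0.23).

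IDH1 and FUM1, which were called higher or not called in peroxide, fell at 30 min of salt. IDH1 read -0.34 at 15 min, -0.73 and -0.42 at 30 min, 0.26 and 0.30 at 45 min and -0.01 at 60 min, and its fitted change at 30 min was -0.58 ± 0.17 (limma adjusted p = 0.0075). FUM1 was at -0.66 ± 0.16 at 30 min (adjusted p = 0.0013). Both calls were lost without replicate 1 of the 30 min arrays, at -0.42 for IDH1 (adjusted p = 0.20) and -0.50 for FUM1 (adjusted p = 0.089). LSC1 and LSC2, the succinyl-CoA ligase subunits, were among the members that rose: LSC1 by 0.70 ± 0.15 at 30 min and 1.25 ± 0.15 at 45 min (adjusted p = 8.4e-07), and LSC2 by 1.04 ± 0.21 at 30 min (adjusted p = 0.00022) and 1.03 ± 0.21 at 45 min. KGD2 rose by 0.57 ± 0.14 and 0.65 ± 0.14 at these times. MDH1 was not called in salt, at 0.04 ± 0.13 and 0.27 ± 0.13 (adjusted p = 0.81 and 0.11). Salt and peroxide ratios were not tested against each other.

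**Figure D4:**
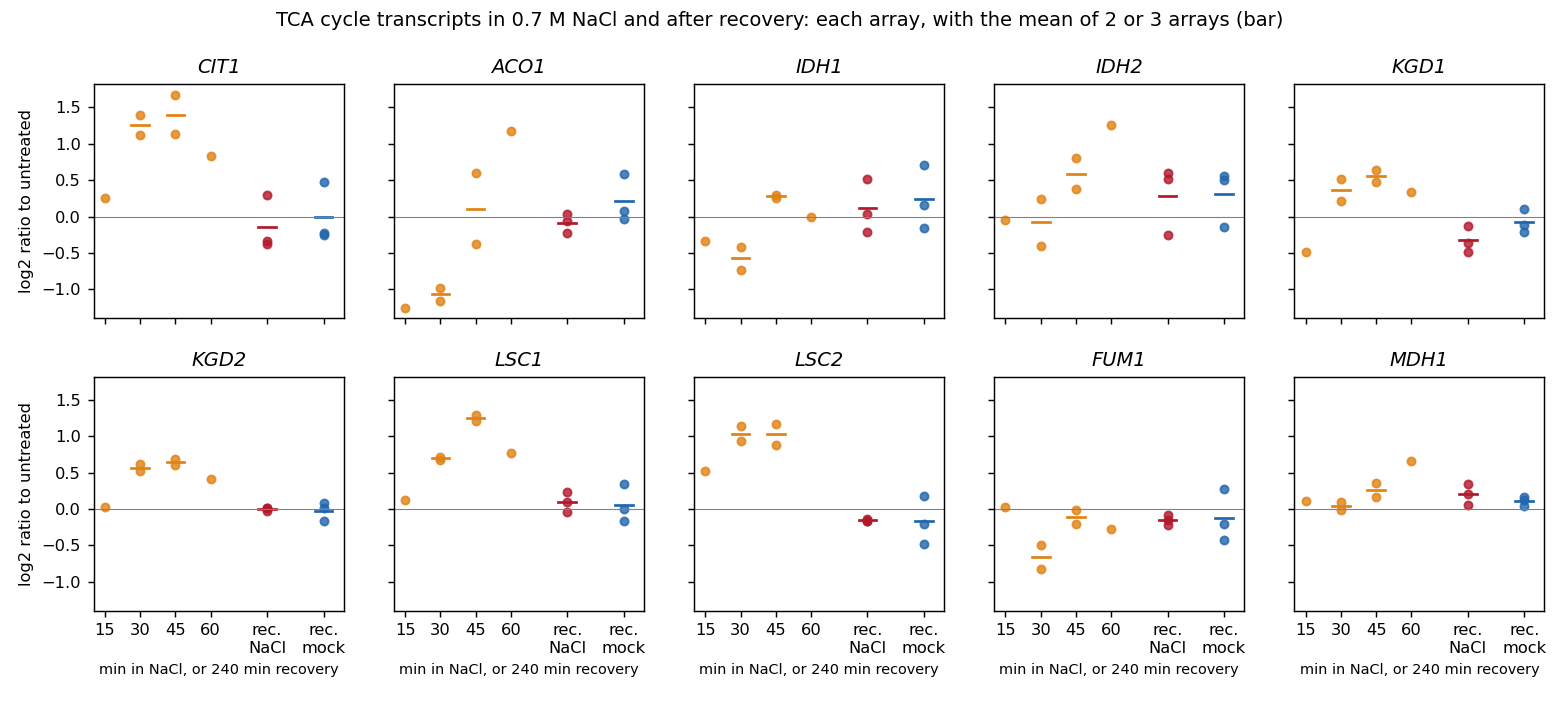
Log2 ratio to untreated cells (vertical axis) for each enzyme (panels) at 15, 30, 45 and 60 min in 0.7 M NaCl, then 240 min after NaCl and 240 min after mock treatment. Points are arrays and bars are means where a group has 2 or 3 arrays. ACO1 is below -0.9 at 15 and 30 min and at 1.17 at 60 min, LSC1 is above 0.6 from 30 min on, and the recovered arrays lie between -0.5 and 0.75.

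The second design asked whether the salt history matters in cells that lack NUP42, which encodes a nucleoporin of the cytoplasmic side of the pore with a role in mRNA export. It has 1 array per condition, so no test was possible and the values describe single arrays. The labels do not say whether the deletion strain is 1 clone. Its comparison RNAs differ: both naive and pretreated BY4741 arrays were set against untreated BY4741, while both kinds of nup42-delta peroxide array were set against recovered nup42-delta cells. Part of the labels calls that comparison RNA basal instead. Subtracting naive from pretreated cancels the shared comparison RNA within a strain, and the result includes any recovery change, as the level difference of the first design does.

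In BY4741 the pretreated arrays stood above the naive arrays for the first 4 enzymes of the cycle. At 10 min CIT1 read 1.29 on the pretreated and 0.48 on the naive array, ACO1 0.63 and -0.27, IDH1 1.32 and -0.16, and IDH2 1.27 and -0.15. At 20 min CIT1 read 2.07 on the pretreated and 0.99 on the naive array, ACO1 0.62 and -0.51, IDH1 1.49 and 0.34, and IDH2 1.79 and 0.17. The differences were 1.49 for IDH1, 1.42 for IDH2, 0.89 for ACO1 and 0.81 for CIT1 at 10 min, and 1.15, 1.62, 1.13 and 1.08 for the same genes at 20 min. Differences of at least 1 were reached by 2 of 10 members at 10 min and 4 of 10 at 20 min, where 5.27% and 7.90% of all features rose that far. The IDH1 difference at 10 min, 1.49, compares with a level difference of 0.50 ± 0.24 in the first design.

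In nup42-delta the same subtraction gave 0.56 for ACO1, 0.23 for CIT1, -0.12 for IDH1 and -0.03 for IDH2 at 10 min, and 0.55, 0.52, 0.25 and 0.42 at 20 min. At 10 min IDH1 read 0.09 on the pretreated and 0.20 on the naive array, and ACO1 read 0.05 on the pretreated and -0.51 on the naive array. None of the 10 members differed by 1 or more at either time, where 2.90% and 1.66% of all features were at least that much higher. The median difference over the members was 0.11 at 10 min and 0.35 at 20 min in nup42-delta, against 0.51 and 0.33 in BY4741. The first 4 enzymes, which had the largest differences in BY4741, had smaller ones in nup42-delta at both times. They were singled out on those same BY4741 arrays, so their smaller differences in nup42-delta do not measure a strain effect. Of the other 6 members, 2 had a larger difference in nup42-delta than in BY4741 at 10 min and 5 at 20 min, among them LSC2, at 0.55 in nup42-delta and 0.14 in BY4741 at 20 min. With 1 array each the strain difference was not tested. The spread of all features on the pretreated arrays was 0.55 at 10 min and 0.88 at 20 min in nup42-delta, against 0.77 and 1.22 in BY4741, and on the naive arrays 0.55 and 0.85 against 0.54 and 0.80. Its part in the result was not tested.

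**Figure D5:**
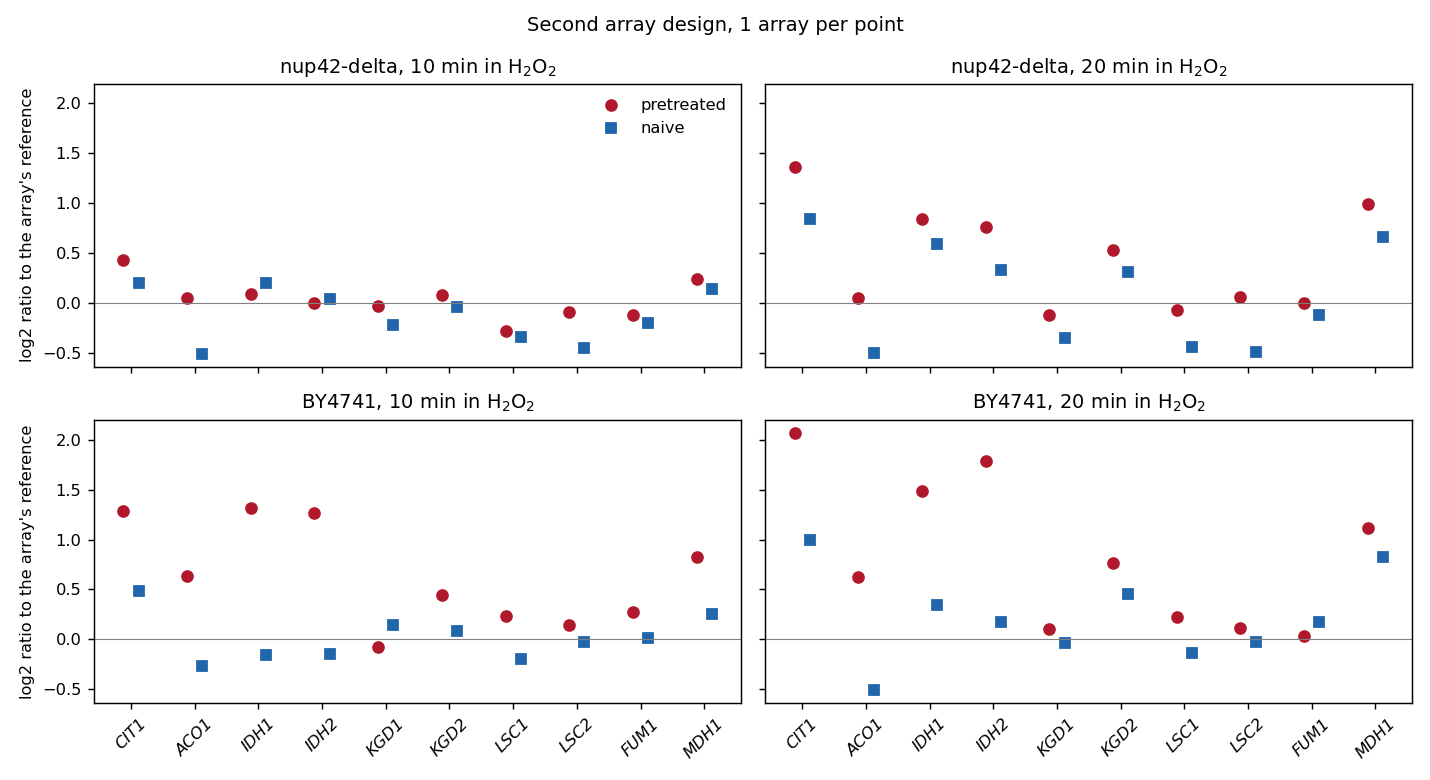
Log2 ratio on each single peroxide array of the second design for the 10 enzymes (horizontal axis), with nup42-delta above and BY4741 below, and 10 min left of 20 min. Pretreated arrays (red) are drawn left of naive arrays (blue). In BY4741 pretreated values of CIT1, ACO1, IDH1 and IDH2 exceed naive values by 0.81 to 1.62, and in nup42-delta the gaps run from -0.12 to 0.56.

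Before any stress, the members lay between -0.28 and 0.43 in nup42-delta relative to BY4741, CIT1 being highest, and 0 of 10 were past 1 in size, where 3.10% of all features were. At 30 min of NaCl, ACO1 read -1.40 in nup42-delta and -0.91 in BY4741, IDH1 -1.06 and -0.52, CIT1 1.22 and 1.56, and FUM1 -0.64 and -0.45. These signs matched the first design's 30 min group in all 4 genes. In nup42-delta 1 of 10 members was at least 1 higher and 2 at least 1 lower, where 34.0% of all features were past 1 in size. In BY4741 it was 1 higher and 0 lower, where 36.6% were. The nup42-delta salt array was set against recovered BY4741 and the BY4741 salt array against untreated BY4741, so strain and comparison RNA cannot be told apart here.

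Among themselves the members did not follow one course. As a description over the 14 group means of the first design, which share a table and a platform, the closest pairs were CIT1 with KGD2 (Pearson r = 0.96), IDH1 with MDH1 (0.92) and KGD1 with LSC1 (0.88). Partner subunits were not the closest: of 45 pairs, IDH1 with IDH2 ranked 6 (0.86), LSC1 with LSC2 ranked 7 (0.85) and KGD1 with KGD2 ranked 23 (0.54). The lowest pair was KGD1 with FUM1, at -0.21. Against the mean of the other members, KGD2 (0.94), IDH2 (0.92) and CIT1 (0.88) were most typical, and LSC2 (0.36) and ACO1 (0.45) least. Partner gaps differed between stresses: on single arrays IDH2 lay above IDH1 on 6 of 6 NaCl arrays, on 4 of 10 pretreated peroxide arrays (median gap -0.04) and on 1 of 10 naive peroxide arrays.

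Of 5087 genes outside the members with a value in all 14 groups, those most like the members' mean course were ARP3 (r = 0.99), GTT1, YNK1, YDC1 and YGL114W (each 0.96). ARP3 encodes a subunit of the actin-nucleating Arp2/3 complex, GTT1 a glutathione transferase, YNK1 nucleoside diphosphate kinase and YDC1 a ceramidase. By Spearman's rho the leading genes were RAD7, PST2, ZTA1, GRX1 and GTT1, so apart from GTT1 the order rests on the measure of likeness.

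Succinate dehydrogenase, the enzyme between LSC and FUM1 and a member of the respiratory chain, changed in a set of 11 genes that covers subunits, assembly factors and paralogs. At 40 min of peroxide 3165 of 5013 genes tested were called in either direction in pretreated cells and 3228 of 5273 in naive cells. Of the succinate dehydrogenase genes, 5 of 11 tested were higher in pretreated cells and 8 of 10 in naive cells, with 0 lower. The largest were SHH4, a paralog of the membrane anchor (2.50 ± 0.49 in pretreated, 2.21 ± 0.49 in naive cells), SDH6, an assembly factor (2.06 ± 0.25 and 2.58 ± 0.25), and SDH5, needed to attach the flavin (2.06 ± 0.18 and 1.93 ± 0.18). The catalytic iron-sulfur subunit SDH2 fell by 1.51 ± 0.29 at 10 min in naive cells (limma adjusted p = 0.00045), the time at which ACO1 fell. SDH2 was the only gene of the list called lower then, while SDH6 (1.36 ± 0.21), SDH7 (1.22 ± 0.16) and others were called higher. In salt at 30 min 7 of 8 tested rose, where 2607 of all 4986 genes tested were called. The rises included SDH6 (2.05 ± 0.25), SDH1 (1.92 ± 0.52) and SDH3 (1.39 ± 0.17).

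Many makers of the cycle's cofactors rose with peroxide, and few were called in salt. At 40 min 3165 of 5013 genes tested were called in either direction in pretreated cells and 3228 of 5273 in naive cells. Of the 15 iron-sulfur and lipoate genes, 10 of 13 tested were higher and 2 lower then in pretreated cells. In naive cells 10 of 15 were higher and 2 lower. The scaffold genes ISU2 and ISU1 led in naive cells, with 3.08 ± 0.15 and 2.13 ± 0.18, followed by IBA57 (1.86 ± 0.43), which helps to mature aconitase-type clusters. In pretreated cells the values were 2.44 ± 0.15, 1.65 ± 0.18 and 2.33 ± 0.43. ISU2 was already at 2.55 ± 0.12 at 10 min in naive cells (limma adjusted p = 3.5e-12). At that time 6 of 15 were higher and 0 lower, where 1828 of all 5419 genes tested were called. At 30 min of salt 2 of 15 were higher and 3 lower, where 2607 of all 4986 genes tested were called. ISU2 was at -0.54 ± 0.15 there.

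CIT1 has an isoenzyme outside the mitochondria in CIT2. CIT2, the peroxisomal citrate synthase and the classic target of the retrograde pathway, was at 1.14 ± 0.21, 0.57 ± 0.21, -0.33 ± 0.26 and -1.82 ± 0.26 at 10, 20, 30 and 40 min in pretreated cells, against 0.59 ± 0.21, 1.08 ± 0.21, 0.90 ± 0.26 and -0.23 ± 0.26 in naive cells. The pretreated minus naive difference was called at 30 min (-1.23 ± 0.37, limma adjusted p = 0.038) and at 40 min (-1.59 ± 0.37, adjusted p = 0.0063). Without replicate 1 of the pretreated arrays the difference was -0.65 at 30 min and -1.10 at 40 min, and neither was called. Across the alternative settings the adjusted p ran from 0.0048 to 0.93 at 30 min and from 0.00056 to 0.82 at 40 min. In the second design naive CIT2 read 2.56 at 10 min in BY4741, well above the 0.59 of the first design. The size of its change thus differed between the 2 experiments, while its direction from 10 to 20 min was the same. In BY4741 of the second design naive CIT2 rose to 2.97 at 20 min, and pretreated CIT2 fell from 3.14 to 1.98. Pretreated minus naive was 0.58 at 10 min and -0.99 at 20 min there, against -0.38 and -0.34 in nup42-delta. These are single arrays and were not tested. KGD4, a small subunit of the 2-oxoglutarate dehydrogenase complex, rose by 1.43 ± 0.15 in pretreated and 1.25 ± 0.15 in naive cells at 40 min, and by 0.93 ± 0.15 at 30 min of salt.

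At the entrance to the cycle, the pyruvate dehydrogenase complex had called genes at about the share of all genes. At 40 min 3 of 8 tested were higher and 2 lower in pretreated cells, where 63.1% of all genes were called, and 3 of 7 higher and 1 lower in naive cells, where 61.2% were. The largest values belonged to its inhibitory kinases PKP2 (1.98 ± 0.29 in pretreated, 2.63 ± 0.29 in naive cells) and PKP1 (1.10 ± 0.27 and 1.30 ± 0.27). Of the mitochondrial carriers, 0 of 10 were higher and 5 lower in pretreated cells and 1 of 10 higher and 3 lower in naive cells at 40 min, where 33.4% of all genes were lower in each. They were led by the citrate and 2-oxoglutarate carrier YHM2 (-3.24 ± 0.31 in pretreated and -3.16 ± 0.31 in naive cells). In salt at 30 min 5 of 10 carriers were higher and 2 lower, where 2607 of all 4986 genes tested were called. MPC3, a pyruvate carrier subunit of respiring cells, stood at 6.39 ± 0.59 there. The malic enzyme MAE1 was at -3.33 ± 0.24 in pretreated and -1.72 ± 0.24 in naive cells at 40 min of peroxide, and at -3.21 ± 0.24 at 30 min of salt.

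Among the 13 regulators, RTG2, the sensor of the retrograde pathway, rose by 1.57 ± 0.18 in pretreated and 1.45 ± 0.18 in naive cells at 40 min. Its pretreated minus naive difference was 0.73 ± 0.20 at 20 min (limma adjusted p = 0.049), and without replicate 1 of the naive arrays it was 0.49 (adjusted p = 0.21). Its adjusted p ran from 0.0037 to 0.79 across the alternative settings. RTG1 and RTG3 were not called at 40 min in either group. RTG1 was called higher in naive cells at 10 min (0.79 ± 0.28) and 20 min (1.02 ± 0.28), but at 30 min in neither group. In salt RTG3 was called higher at 30 min (0.56 ± 0.15) and 45 min (0.40 ± 0.15), and RTG1 at neither time. HAP4, the limiting subunit of the Hap activator, was at 1.30 ± 0.52 in pretreated and 2.09 ± 0.52 in naive cells at 20 min, both called. At 30 min HAP4 was called in naive cells (1.58 ± 0.64) and not in pretreated cells (1.12 ± 0.64), and at 40 min in neither. In all, 4 of 11 regulators tested were higher and 1 lower at 40 min in pretreated cells, and 5 of 13 higher and 2 lower in naive cells. Of all genes tested, 3165 of 5013 and 3228 of 5273 were called in these groups, a larger share in each.

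The nuclear-encoded respiratory chain, a list of 37 genes, rose in the same samples: at 40 min 19 of 36 tested were higher and 1 lower in pretreated cells, with a median of 0.51, and 25 of 35 higher and 0 lower in naive cells, with a median of 0.65. For comparison the cycle members had 7 of 8 in pretreated and 7 of 10 in naive cells. Of all genes tested, 3165 of 5013 and 3228 of 5273 were called in either direction in these groups. CYC1, a cytochrome c gene, was at 2.77 ± 0.23 in pretreated and 3.24 ± 0.23 in naive cells at 40 min. At 30 min of salt CYC1 was at -2.50 ± 0.23 (limma adjusted p = 8.2e-09). The other cytochrome c gene, CYC7, was at 3.15 ± 0.44 there (adjusted p = 6.1e-06). In that group 16 of 34 chain genes were higher and 5 lower, where 2607 of all 4986 genes tested were called. No gene of the chain list is a cycle member, and the lists were not tested against each other.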

How the data were processed

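RNA of sample and comparison cells was hybridised together on 43 spotted 2-colour arrays. The deposited values are log2 ratios as the authors normalised them; the method is not given in the sources used here. Log base and direction (channel 2 over channel 1, sample over comparison RNA, per the labels) were inferred from the values, with NUP42 at -5.36 on an array of its deletion. The labels list no dye swap, so dye effects do not cancel. Values were used as deposited. Group means over 32 arrays were fitted with limma 3.58.1 (R 4.3.3; lmFit, eBayes). A gene was tested with at least 2 arrays in each group compared, and called at a Benjamini-Hochberg adjusted p under 0.05 over all genes tested; tests are 2-sided. The second design (1 array per condition) was not tested, and 1 on the log2 scale marked a large change. Scripts were tested on simulated data. All members are named, with at most 3 called genes per neighbouring list and comparison, preset paralogs and regulators, and the 5 genes most alike. SDH2, SDH3, SDH6 and SDH7 at single times, ISU2 in salt, CYC1 and CYC7 were chosen after their values were seen. Within a time course, same-numbered arrays deviated together (r of 0.52, 0.41 and 0.50 between 10 and 20 min in naive cells, 0.40, 0.43 and 0.63 in pretreated cells, and 0.46 between 30 and 45 min of NaCl). Same-numbered 10 and 20 min arrays also shared a slide code, as did replicate 2 at 30 and 45 min of NaCl. A shared slide and a shared culture cannot be told apart there. Comparisons of times were fitted unpaired. Members and lists were chosen with earlier results of these data known. Alternatives changed centring, arrays fitted, genes kept, blocks and replicates; equalising array spread was added after seeing the data.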

Additional observations from a re-analysis of the deposited data

Results flagged for a closer look

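The test of pretreated against naive responses set apart 1 cycle member and 2 neighbouring genes. ACO1 differed by 0.78 at 20 min, its ratio being near 0 in pretreated cells and below 0 in naive cells. RTG2 differed by 0.73 at 20 min. CIT2 differed by -1.23 at 30 min and by -1.59 at 40 min. Groups of 2 or 3 arrays were too small to examine for outlying samples.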

How the results depend on the processing

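Of 78 calls of members, 37 held under every alternative run, among them MDH1 at all 8 peroxide points, CIT1 from 20 min in naive and from 10 min in pretreated cells, and ACO1 at 10 min in naive cells and at 30 min of salt. Leaving out 1 replicate ended 34 calls, fitting the compared arrays alone 17, and equalising the spread of all 32 arrays 33, with 2 more reversed. Centring on the median, the print code, the slide code and the replicate block each ended between 0 and 2. Counts below are members called, and where no cause is named the cause was not tested. Fitting the compared arrays alone, which leaves fewer samples, gave 5 at 20 min in pretreated cells, 0 for pretreated minus naive at 20 min, 3 for pretreated 40 minus 10 min and 0 for NaCl 45 minus 30 min. Keeping only genes valued on all 32 arrays, which drops ACO1, KGD2 and LSC2, gave 0 for pretreated minus naive at 20 min, 4 at NaCl 30 min and 1 for NaCl 45 minus 30 min. Equalising all 32 arrays gave 4 at 30 min in naive cells, 5 at 20 min and 4 at 40 min in pretreated cells, 0 for pretreated minus naive at 20 min, 2 recovered after NaCl and 1 after mock treatment, 3 at NaCl 30 min, and 2, 0 and 0 for naive 40 minus 10 min, pretreated 40 minus 10 min and NaCl 45 minus 30 min. Equalising the 26 stress arrays, chosen after seeing the data, gave 5 at 10 min in naive cells, 1 and 0 for pretreated minus naive at 10 and 20 min, and 1 for pretreated 40 minus 10 min. Under these settings MDH1 reversed to -0.10 and -0.12 for naive 40 minus 10 min, and CIT1 to -0.0010 and -0.0013 for pretreated 40 minus 10 min. The slide code as a random block gave 0 for pretreated minus naive at 20 min and 5 for NaCl 45 minus 30 min. Same-numbered pretreated and naive arrays deviated together with r of 0.17, -0.0018 and 0.40 at 10 min and 0.27, 0.09 and 0.56 at 20 min. Unlike numbers among replicates 1 and 2 gave 0.28 and 0.27 at 10 min and 0.39 and 0.26 at 20 min, so these numbers do not pair the arrays. Replicate 3 of both groups went together and apart from the others, with r between -0.47 and -0.20 to other numbers. It has a print code of its own, and whether the print is the cause was not tested. In the comparisons of a later with an earlier time, where numbers may pair within a course, the replicate block added KGD1 in pretreated cells (0.60, adjusted p = 0.029) and changed no other call. Elsewhere the replicate block gave 5 at 10 min in naive cells, 2 for pretreated minus naive at 20 min (with IDH2) and 1 for the level difference at 20 min. The replicate block within experiment, also chosen after seeing the data, gave 5, 2 and 1 there, and 1 for pretreated minus naive at 10 min. With single replicates left out the counts ran over 2 to 3, 5 to 7, 5 to 7 and 5 to 7 at the 4 naive times and 2 to 4, 5 to 7, 6 to 7 and 5 to 7 at the pretreated times. They ran over 0 to 1 and 0 to 2 for pretreated minus naive at 10 and 20 min, 3 to 7 and 3 to 6 for NaCl 30 and 45 min, and 5 to 8, 1 to 6 and 0 to 2 for naive 40 minus 10 min, pretreated 40 minus 10 min and NaCl 45 minus 30 min, and were 0 to 0 for the late pretreated minus naive, level and recovery comparisons. Over all genes the pretreated minus naive count at 20 min, 199, was 0 with the compared arrays alone or all arrays equalised, 69 with the stress arrays equalised, 442 with the replicate block and 512 with the print code. At 10 min its 12 became 0 to 146, at 30 min its 442 became 0 to 784 and at 40 min its 569 became as few as 0. The recovered counts of 0 became 1241 and 932 with all arrays equalised, and naive 40 minus 10 min fell to 530, against 2161. In the second design a lower and a higher fold threshold moved 7 counts each.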
